A study of Mus musculus with 12 samples.

Results

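Cdk14, Lrmda, Npas3, Inpp5a, Ulk4, Cachd1 and Fam53c are 7 of the 21631 protein-coding mouse genes considered on chromosomes 1 to 19 and X. They were chosen on the H3K4me1 peak lists themselves, for carrying more regions found only in wild-type cells than only in knockout cells, or for holding a highly ranked region of that kind. Counts and heights of H3K4me1 over these genes are therefore given as a description and were not tested. The H3K4me3 and MLL4 lists, which did not enter the choice, were compared as well. Fibroblasts grown out of mouse embryos, of wild-type (WT) genotype or labelled fbxw7 KO, were profiled by Cut & Run, in which a nuclease tethered by an antibody cuts out the DNA beneath a chosen chromatin protein or mark for sequencing. The 3 antibodies, against MLL4, H3K4me1 and H3K4me3, gave 2 libraries per genotype each, 12 in 6 groups. Which part of Fbxw7 was removed is not in the labels, so that peaks over that gene give no check of the genotypes, and neither is whether the KO cells were 1 clone, or whether paired libraries stem from different cultures.

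H3K4me1 is a histone mark typical of enhancers, the distal elements that act on promoters, and H3K4me3 marks the start sites of active genes. MLL4, encoded by Kmt2d, is a methyltransferase that places H3K4me1 at enhancers. Fbxw7 is the substrate-recognising subunit of an SCF ubiquitin ligase, which marks proteins for degradation. Long genes often hold many enhancers within their introns.

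The promoters of 4 of the genes are shown because their H3K4me3 differed in kind between genes: a peak at the start in the WT libraries alone for Lrmda, none within 1 kb of the start in any library for Npas3, a peak in all 4 libraries for Ulk4, and a tall WT peak against short KO peaks for Cachd1. Each run is the 250 bases before the start that RefSeq lists on GRCm38.p6, written 5′ to 3′ on the gene's own strand, and the capitals mark every CG, a dinucleotide that reads the same on both strands.
Lrmda (chr14:22019462-22019711, plus strand): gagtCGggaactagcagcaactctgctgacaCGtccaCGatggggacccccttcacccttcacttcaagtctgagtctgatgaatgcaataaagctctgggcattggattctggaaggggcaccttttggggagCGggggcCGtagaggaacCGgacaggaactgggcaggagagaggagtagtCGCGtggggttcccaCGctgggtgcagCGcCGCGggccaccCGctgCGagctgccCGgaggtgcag
Npas3 (chr12:53248182-53248431, plus strand): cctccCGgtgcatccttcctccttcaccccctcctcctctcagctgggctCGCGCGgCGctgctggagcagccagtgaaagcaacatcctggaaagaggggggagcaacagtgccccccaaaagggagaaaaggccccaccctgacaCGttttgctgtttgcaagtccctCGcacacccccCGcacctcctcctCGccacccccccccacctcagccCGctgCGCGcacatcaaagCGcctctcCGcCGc
Ulk4 (chr9:121277173-121277422, minus strand): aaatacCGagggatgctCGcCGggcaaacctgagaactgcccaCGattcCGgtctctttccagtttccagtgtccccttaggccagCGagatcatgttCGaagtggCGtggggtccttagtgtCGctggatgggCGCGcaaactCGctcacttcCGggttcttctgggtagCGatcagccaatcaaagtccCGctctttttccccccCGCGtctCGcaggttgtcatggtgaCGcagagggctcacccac
Cachd1 (chr4:100776429-100776678, plus strand): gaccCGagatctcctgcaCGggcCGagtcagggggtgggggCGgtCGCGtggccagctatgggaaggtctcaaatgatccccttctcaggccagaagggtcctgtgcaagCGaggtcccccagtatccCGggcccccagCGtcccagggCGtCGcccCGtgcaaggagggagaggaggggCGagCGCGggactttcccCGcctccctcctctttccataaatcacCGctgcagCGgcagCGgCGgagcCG
The Lrmda and Npas3 promoters held 15 CG each, the Ulk4 promoter 19 and the Cachd1 promoter 21. The Cdk14 promoter held 43, a number reached by 0.893% of the 21045 listed promoters. The main Inpp5a promoter held 14 and that of its second listed start 3. The median over all listed promoters was 10, with CG present in 93.6% of them. Promoters with H3K4me3 in all 4 libraries had a median of 17 CG, those with H3K4me3 in the WT libraries alone 15, and those with none 3. Lrmda and Npas3 thus had the same number of CG before their starts, while H3K4me3 lay at the start of Lrmda and not at that of Npas3.

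The H3K4me1 libraries held 11604131 to 13627038 fragments after duplicate filtering, and their lists 53120 to 62065 peaks. WT replicate 1 of H3K4me3 was the deepest of its mark, with 11319701 fragments against 5519477 to 6185767 in the other 3, and KO lists of that mark were shorter (10397 and 11281 peaks against 16078 and 17460). The label fibroblast was checked against marker genes. Of 16 fibroblast markers, 14 carried an H3K4me3 peak close to a gene end in 1 or more libraries, beside 11997 of 21631 protein-coding genes. In all 4 libraries 5 of the 16 had one (Col6a1, Col6a2, Thy1, Pdgfrb and Dcn), beside 7567 of the 21631. That second count did not set the fibroblast markers apart. Pdgfra and Prrx1 had no peak there, and Fn1 and S100a4 had one in 1 library. Of the other cell types, 3 of 11 neural, 1 of 7 haematopoietic, 2 of 5 endothelial, 1 of 5 epithelial, 1 of 5 pluripotency, 0 of 5 myogenic and 2 of 5 melanocyte markers had a peak there. All 3 neural genes, Tubb3, Map2 and Nes, had it in the WT libraries alone. So did 3 fibroblast markers (Col1a2, Col5a1 and Lum), Spi1 of the haematopoietic and Tfcp2l1 of the pluripotency markers. Of all genes with a peak there in any library, 15.3% were of this kind. Over the whole gene rather than its ends, Prrx1, Fn1 and Vim carried H3K4me3 in all 4 libraries and Pdgfra in the WT libraries alone. Neurod1, Pax6 and Esrrb, from the lists of other cell types, also gained a peak by that measure. The part of other cells in the results was not tested.

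Peaks of the 4 H3K4me1 lists were merged into regions wherever they shared at least 1 bp. WT-only regions are those with a peak in each WT library and in no KO library, KO-only regions are the converse, and shared regions have a peak in all 4. Over the 7 genes and 1 kb on either side there were 227 H3K4me1 regions. Of these, 35 (15.4%) were WT-only against 6.63% of all 94400 regions, and 3 (1.32%) were KO-only against 5.37%. Another 71 were shared, 50 lay in 2 or 3 libraries of both genotypes, and 68 lay in a single library (41 in WT, 27 in KO). Because the genes were picked for this excess, nothing follows from the gap to the genome-wide shares. More WT-only than KO-only regions were present in 2145 genes, 16.8% of the 12781 with any region. The members with the smallest excess, Inpp5a and Fam53c, stood at 1 region, and 9308 genes stood at 0. An excess alone did not make a gene a member, as Foxp1, with an excess of 8, was not among the 7.

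Summed over the 7 genes, WT libraries held 175 and 164 H3K4me1 peaks and KO libraries 133 and 118. The log2 ratio of the KO to the WT mean was −0.43, beside −0.11 for peaks over all protein-coding genes. Covered length was 120082 and 107923 bp in WT and 87810 and 75228 bp in KO (log2 ratio −0.48, and −0.18 over all genes). Both KO libraries lay below both WT libraries on either measure for the 7 genes together. Inpp5a was the exception by gene, whose WT counts of 6 and 11 overlapped its KO counts of 8 and 6.

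**Figure D1:**
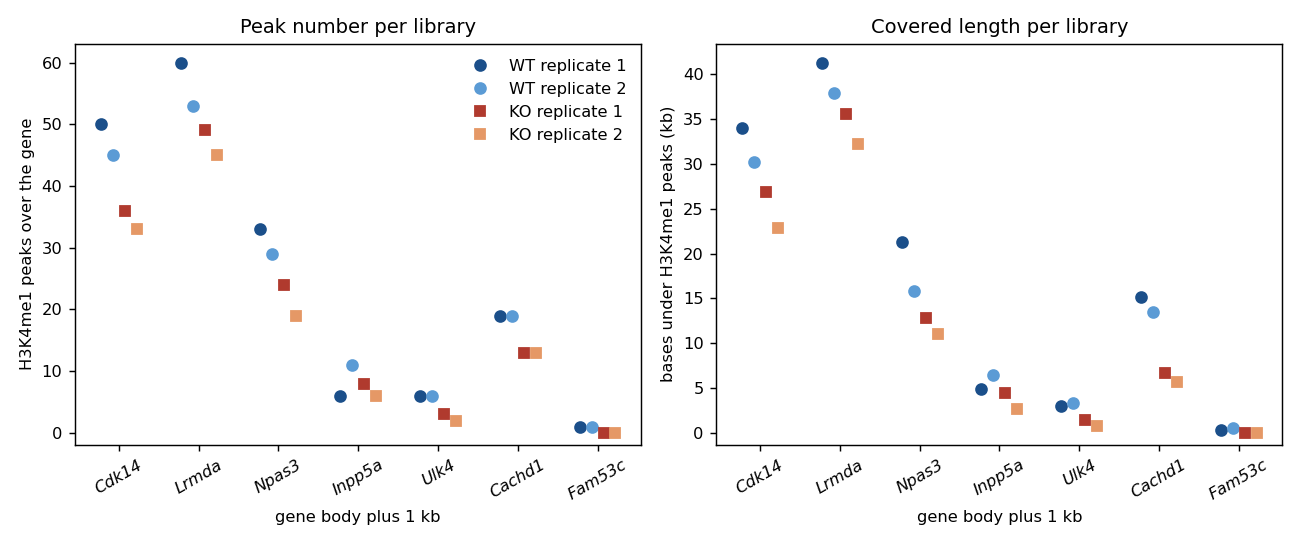
H3K4me1 peaks (left, number) and bases under them (right, kb) over each gene plus 1 kb, one point per library, circles for WT and squares for KO. The KO points lie below the WT points for every gene in covered length and for every gene but Inpp5a in peak number.

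Cdk14 encodes a cyclin-dependent kinase that works with cyclin Y in Wnt signalling. It spans 576.9 kb on chromosome 5 (mm10, 4803384 to 5380251, minus strand) and had the largest excess of WT-only over KO-only regions of all 12781 genes, 9 against 0. Its WT libraries had 50 and 45 peaks, its KO libraries 36 and 33. Both KO values lay below both WT values, yet 23 of its 54 regions were shared. When peaks had to cover at least 50% of a region to count as holding it, the excess was 3 regions, 4 against 1. The tallest peaks of the 9 WT-only regions were 24 fragments high, in WT replicate 1 at 4819638 to 4820417 (14 in replicate 2) and in WT replicate 2 at 5159503 to 5160133 (20 in replicate 1). The lowest in replicate 2 was at 4853416 to 4853798, with 14 and 11. These heights are pileups, the number of fragments over a peak's summit, which are not scaled to depth. The other WT-only regions were at 4820678 to 4821452, 4858223 to 4858961, 4930900 to 4931623, 5022483 to 5023310, 5124232 to 5124995 and 5302399 to 5303291, with 12 to 20 fragments. They were spread from 77.4 to 560 kb inside the gene. The nearest KO peak was 3413 to 22656 bp away, so that none of the 9 was a small shift of a KO peak. The tallest shared region, 37.2 kb inside the start at 5342048 to 5344048, had 40 and 29 fragments in WT and 41 and 34 in KO, with overlapping values. Exons could not be told from introns, and regions inside a gene are described here only as such.

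Lrmda, a gene named for melanocyte differentiation and mutated in a form of oculocutaneous albinism, is the longest of the 7 at 1037 kb (chromosome 14, 22019504 to 23056093, plus strand). The WT libraries showed 60 and 53 peaks there, the KO libraries 49 and 45. It had 9 WT-only regions, 1 KO-only region and 29 shared ones among 77. One WT-only region lay 1.22 kb inside the listed start, at 22020606 to 22021267, with 20 and 18 fragments. No KO library had a peak overlapping it, although KO replicate 2 alone had one of 14 fragments at 665 to 344 bp before the start. The tallest WT-only regions lay far inside the gene, at 23012278 to 23012714 (27 and 23 fragments), at 22720161 to 22720624 (22 and 27) and at 22871851 to 22872531 (18 and 22). The remaining 5, at 22156773 to 22157449, 22452448 to 22453168, 22523211 to 22523982, 22766012 to 22766362 and 22929206 to 22930182, had 9 to 18 fragments. The KO-only region, at 22114988 to 22115632, was low as well, with 10 fragments in each KO library. The tallest shared region sat near the far end of the gene, at 23051177 to 23052422, with 49 and 33 fragments in WT and 34 and 27 in KO.

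Npas3 encodes a basic helix-loop-helix PAS transcription factor known from brain development. It spans 824.1 kb (chromosome 12, 53248026 to 54072173, plus strand), with 33 and 29 WT peaks and 24 and 19 KO peaks. Its 7 WT-only regions stood against 0 KO-only and 8 shared regions among 46. One of them, at 53247330 to 53247836, lay at −0.849 kb from the listed start and was low, with 11 and 10 fragments. The last 3, at 53983821 to 53984391 (16 and 11 fragments), 54036351 to 54037108 (17 and 18) and 54060733 to 54061345 (16 and 13), lay 736 to 813 kb inside the gene. There the nearest KO peak was 20559, 30582 and 54964 bp away, farther than for the other 4 WT-only regions of the gene. The tallest WT-only region in replicate 1, at 53877197 to 53878411, had 19 and 16 fragments. The others were at 53365616 to 53366161 (14 and 14) and at 53326825 to 53327931 (13 and 11). The last of these had a KO replicate 1 peak 290 bp away, the single case of the 35 with a KO peak within 1 kb. The tallest shared region, at 53373919 to 53375034, was as high in KO (28 and 32 fragments) as in WT (29 and 22).

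**Figure D2:**
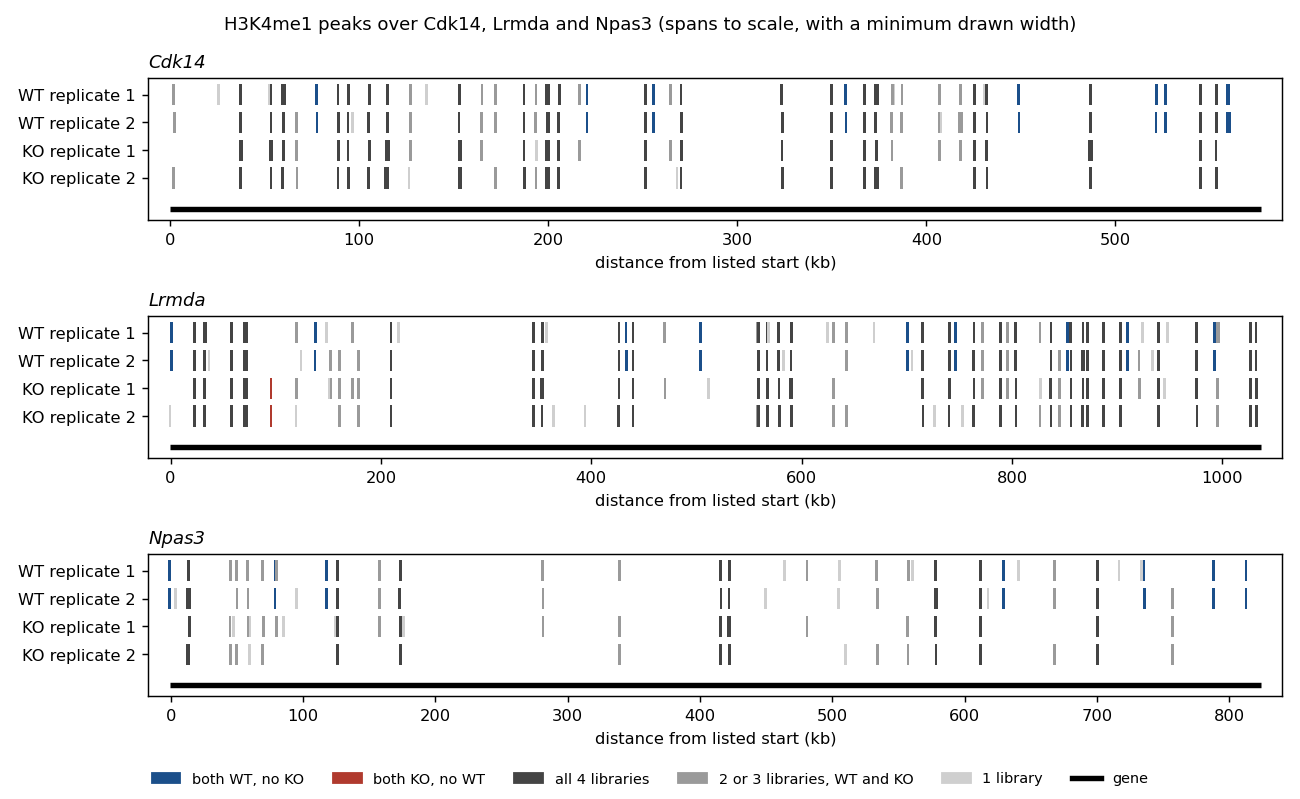
H3K4me1 peaks of the 4 libraries along Cdk14, Lrmda and Npas3, by distance from the listed start in kb, coloured by the libraries that held the region; the black line is the gene. WT-only regions (9, 9 and 7) are spread among shared ones (23, 29 and 8) in each gene.

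Inpp5a encodes an inositol polyphosphate 5-phosphatase that ends calcium signalling by inositol trisphosphate. It spans 190.6 kb (chromosome 7, 139389074 to 139579652, plus strand), and the neighbouring Nkx6-2 overlaps its far end. It had 2 WT-only regions, 1 KO-only and 3 shared among 13. The WT-only region for which it was picked, at 139549723 to 139550925, 161 kb inside the gene, had 31 and 28 fragments and no KO peak within 33083 bp. The other, at 139446252 to 139446784, had 17 and 17 fragments, and the KO-only region at 139458716 to 139459050 had 16 and 13. The tallest shared region, at 139439919 to 139441277, had 37 and 42 fragments in WT and 36 and 37 in KO. Scaled to depth, the KO mean of this region was 0.851 times the WT mean, so that one strong region was absent from both KO lists while the tallest one was present in all 4.

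Ulk4 encodes an Unc-51-like protein regarded as a pseudokinase. Over its 321.7 kb (chromosome 9, 120964454 to 121286159, minus strand) the WT libraries had 6 and 6 peaks and the KO libraries 3 and 2, and none of its 11 regions was shared. A WT-only region at 121132581 to 121133270, 144 kb inside the gene, had 25 and 28 fragments, and the nearest KO peak was 66252 bp away. The flanking WT-only regions were lower, with 13 and 15 fragments at 121079306 to 121079881 and 11 and 11 at 121161568 to 121162196. The KO-only region, at 121046536 to 121047311, was as high as the taller of these, with 13 and 15. A region at 120972850 to 120973377 had 25 fragments in WT replicate 2 and no peak in the other 3 libraries. Ulk4 carried few H3K4me1 peaks in either genotype.

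Cachd1 encodes a membrane protein related to the alpha2delta subunits of voltage-gated calcium channels, whose currents it can modulate. It spans 227.1 kb (chromosome 4, 100776679 to 101003749, plus strand) and was the most densely covered of the members with several regions, with 10.9 regions per 100 kb of window. Each WT library had 19 peaks over it, each KO library 13. Of its 4 WT-only regions, 3 were among the tallest peaks of the WT lists. The region at 100943689 to 100944847, 168 kb inside the gene, had 41 and 42 fragments. That at 100877245 to 100878138, further towards the start, had 40 and 30. That at 100779864 to 100780901, 3.7 kb inside the start, had 36 and 34. All 6 of these values were at or above the 89.4th percentile of their own WT list, with no overlapping peak in either KO library. The fourth, at 100990765 to 100991803, was low (14 and 10).

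Fam53c belongs to the little-characterised FAM53 family. It spans 14.93 kb on chromosome 18 (34758831 to 34773760), and no strand or start is listed for it in the promoter table. Its 1 H3K4me1 region, at 34769036 to 34769620, was WT-only, with 24 and 25 fragments in WT and no KO peak within 9888 bp. The authors' −log10 q of this region was 14.2 and 16.0. Each WT library therefore had 1 peak over the window, of 376 and 585 bp, and each KO library 0.

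**Figure D3:**
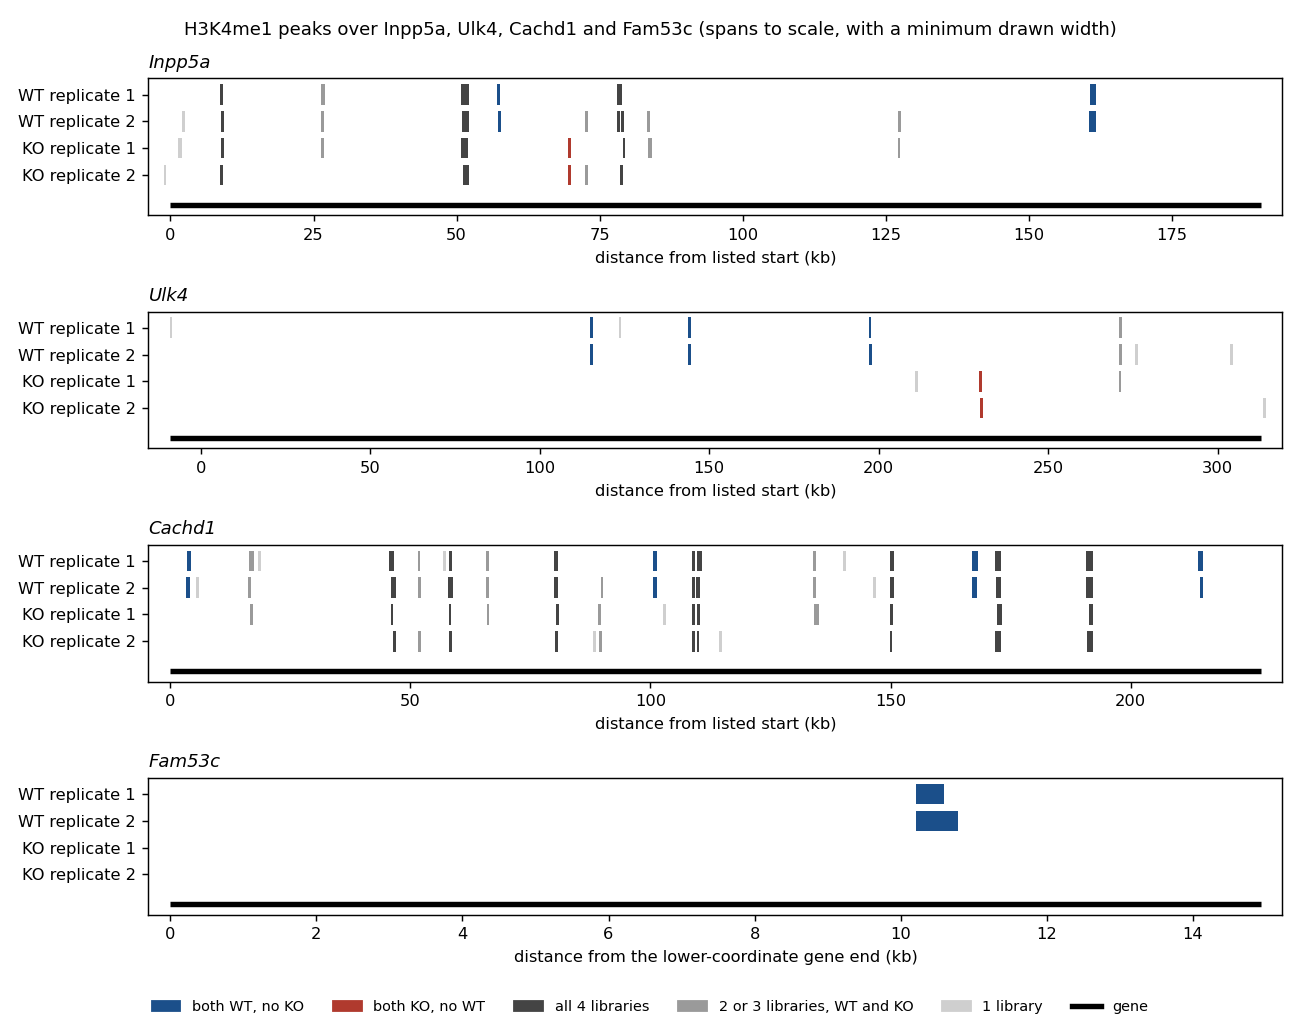
H3K4me1 peaks of the 4 libraries along Inpp5a, Ulk4, Cachd1 and Fam53c, by distance from the listed start in kb (for Fam53c from its lower-coordinate end), coloured by the libraries that held the region. Over the gene plus 1 kb, Cachd1 has 8 shared regions beside its 4 WT-only ones, whereas Ulk4 and Fam53c have no shared region.

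Most WT-only regions over the genes were weak peaks. Their median pileup stood at percentile 42.0 of the list of WT replicate 1 and 33.5 of replicate 2, beside 37.0 and 33.5 for all 6263 WT-only regions and 67.7 and 63.5 for the 27093 shared ones. Their median length was 721 bp (673 bp for all WT-only, 1211 bp for shared regions), and 0 of 35 overlapped an H3K4me3 region. The genes differed among themselves in this respect. The median percentiles were 25.9 and 27.5 for Cdk14 and 37.0 and 21.3 for Npas3 but 96.1 and 92.1 for Cachd1. Of the 35 regions, 5 reached a −log10 q of at least 10 in both WT lists, 2 of them in Cachd1 and 1 each in Inpp5a, Ulk4 and Fam53c. When all lists were cut at that value before merging, 6 WT-only regions were found, the sixth being one of Cdk14 outside the 35. At that cutoff Cdk14 had 1 WT-only and 1 KO-only region, Npas3 none of either, and Lrmda 0 WT-only and 3 KO-only, so that the direction for Lrmda turned. A region without a KO peak is one that did not pass the caller's threshold there, and absence of the mark was not shown.

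Heights in the shared regions separated the genes further. Pileup was divided by the library's filtered fragments, and the mean of these depth-scaled pileups in the KO libraries by that in the WT libraries. Over all 27093 shared regions the median ratio was 0.869, with 71.7% below 1. Over the 23 shared regions of Cdk14 it was 0.973, with 12 below 1, and over the 8 of Npas3 0.946. Lrmda stood at 0.812 (29 regions) and Inpp5a at 0.747 (3 regions). In Cdk14 and Npas3, regions present in all 4 libraries were thus about as tall in KO as in WT, while other regions were WT-only.

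Cachd1 had the lowest median ratio, 0.51 over its 8 shared regions (range 0.324 to 0.74), of the 320 protein-coding genes with at least 8 shared regions, whose median was 0.863. Its region at 100886258 to 100887368 had 40 and 53 fragments in WT and 18 and 15 in KO, a ratio of 0.324, the lowest of all 27093 shared regions. The neighbouring region at 100885343 to 100885905 had 43 and 38 fragments in WT and 19 and 20 in KO. Neither pair of libraries overlapped the other in these regions. The region at 100967283 to 100968787 did not separate as far, with 28 and 37 in WT and 27 and 15 in KO. Covered length in the shared regions of Cachd1 was also lower in KO, with a median ratio of 0.519 against 0.949 over all shared regions. These values come from the same H3K4me1 lists as the choice of the gene and are no independent support for it.

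**Figure D4:**
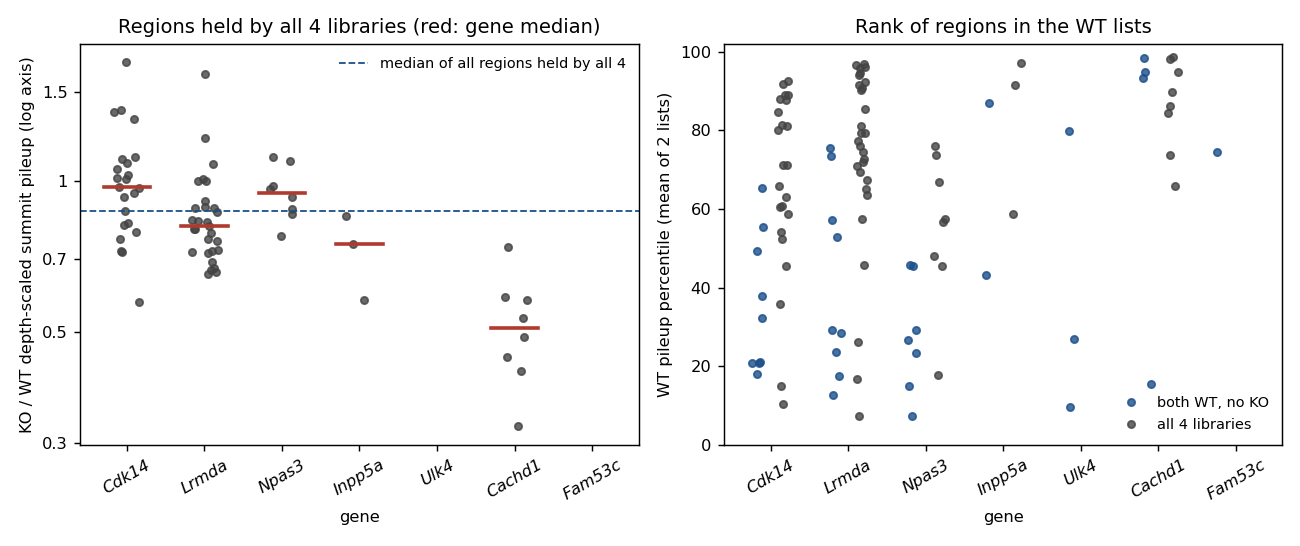
Left, KO over WT depth-scaled pileup (log axis) for each shared H3K4me1 region, with the gene's median in red and the median of all shared regions (0.869) dashed. Right, percentile of WT-only (blue) and shared (black) regions in the WT lists, as the mean of the 2 lists. All 8 Cachd1 ratios lie below the dashed line, and 3 of its 4 WT-only regions lie among the tallest peaks.

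The low ratio extended beyond Cachd1. Within 1 Mb of the gene on its higher-coordinate side, 10 shared H3K4me1 regions had a median ratio of 0.469, all 10 below the genome's median. Within 1 Mb on the other side, 10 regions had a median of 0.748 (0.376 to 1.28). From 1 to 3 Mb away the medians were 0.736 (25 regions) and 0.649 (14 regions). For the other 6 genes the medians within 1 Mb on either side ranged from 0.709 to 0.951. The flanks of Cachd1 held 12 WT-only and 3 KO-only regions, and chromosome 4 as a whole took 0.904 times its WT share of the H3K4me1 lists in KO, the lowest value of the 7 chromosomes concerned (highest 1.05, chromosome 12). Whether the difference at Cachd1 belongs to the gene or to a longer stretch of chromosome 4 was not tested. No input library was used, and whether the DNA copy number of this stretch differed between the WT and KO cells was not tested. Flanks of the other genes also held more WT-only than KO-only regions, from 5 against 1 beside Inpp5a to 13 against 5 beside Cdk14.

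H3K4me3, which did not enter the choice of genes, was compared at the same places. Over the 7 genes WT libraries had 18 and 14 H3K4me3 peaks (mean 16.0 ± 2.83, SD, n = 2) and KO libraries 5 and 6 (5.5 ± 0.707). The log2 ratio was −1.54, with p = 0.33 in a two-sided exact permutation test, the smallest value that 2 against 2 libraries allow. Covered length was 17815 and 12707 bp in WT and 3749 and 4197 bp in KO, a log2 ratio of −1.94 (exact permutation p = 0.33). The groups did not overlap on either measure, but no such comparison can pass 0.05. Over all protein-coding genes the log2 ratios were −0.51 for peaks and −1.49 for covered length, so that the 7 genes shared a difference present in the lists as a whole. With lists cut to an equal length, the ratio for peaks over the 7 genes moved to −0.26 (exact permutation p = 1.0). For covered length it was −1.35 at that setting (exact permutation p = 0.33), with 11863 and 7612 bp in WT and 3749 and 3877 bp in KO.

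At gene ends, within 1 kb of either end of the gene model, H3K4me3 was found in all 4 libraries for Cdk14, Inpp5a and Fam53c, and in the WT libraries alone for Lrmda and Ulk4. Those are 2 of the 6 members with H3K4me3 there in any library, beside 1838 of 11997 such genes, 15.3%. Of the starts that RefSeq lists, 5 of members had H3K4me3 within 1 kb in any library and 1 of these was WT-only, that of Lrmda, beside 14.3% of the 11959 such starts of all genes. For Ulk4 the start carried H3K4me3 in all 4 libraries, at 121277002 to 121278135, with 91 and 50 fragments in WT and 26 and 22 in KO. Its WT-only region, at 121284809 to 121286444 (48 and 20 fragments), lay at −8.45 kb from the listed start. That is the higher-coordinate end of the gene model, where a gene on the minus strand begins. At Lrmda the WT peak, at 22019490 to 22020221, was low, with 21 and 12 fragments. The window thus decided the class of Ulk4 but not that of Lrmda.

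Cachd1 had one of the tallest H3K4me3 peaks in WT and one of the lowest ratios. The region at its start, 100776286 to 100778957, had 188 and 83 fragments in WT (percentiles 99.7 and 99.1) and 13 and 17 in KO (percentiles 27.2 and 50.1). The KO over WT ratio of depth-scaled pileup was 0.174, and 5 of the 8345 shared H3K4me3 regions had a ratio as low or lower, where the median was 0.367 and 99.6% were below 1. In WT the peaks ran from 393 bp before to 2278 bp after the start and from 260 bp before to 2074 bp after it. KO replicate 2 had shorter peaks on both sides of the start, and KO replicate 1 a single one of 263 bp that began 1147 bp after it. Of 2 shared H3K4me3 regions within 1 Mb on the higher-coordinate side, one had a ratio of 0.156 and the other 0.38. The 3 within 1 Mb on the lower-coordinate side had 0.329 to 0.429. From 1 to 3 Mb away the ratios were 0.381 and 0.491 on the lower side and 0.299 to 0.356 on the higher side. A value as low as that of Cachd1 was thus met in 1 flanking region, while the others lay nearer the genome's median. WT replicate 1 was the deepest library and had the taller peak of the 2 WT libraries at each of these starts.

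The other starts lay nearer the genome's median. Cdk14 (5378646 to 5380309) had 104 and 56 fragments in WT and 17 and 16 in KO, a ratio of 0.317. Inpp5a (139388339 to 139390374) had 97 and 44 against 15 and 16, a ratio of 0.345. Fam53c (34758842 to 34760785), at its lower-coordinate end, had 133 and 65 against 25 and 18, a ratio of 0.34. Ulk4 stood at 0.522, a ratio that 95.6% of the shared regions did not exceed, and its KO peaks ranked at percentiles 96.0 and 79.8 of their lists against 66.1 and 72.3 in WT. At every one of these starts the KO pileups lay below the WT pileups, as in nearly all shared H3K4me3 regions.

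Of all H3K4me3 regions, 21.7% of 17842 were WT-only. Over the 7 genes the WT-only ones were a second peak before the start of Cdk14 (5380768 to 5381478, 59 and 27 fragments) and a low one inside it (5265270 to 5266290, 17 and 10). Npas3 had a pair inside the gene, 4.57 and 5.51 kb from the listed start (53252721 to 53253288, 47 and 20 fragments, and 53253531 to 53254360, 59 and 28). The nearest KO H3K4me3 peak lay 648199 bp away from the first of this pair. Npas3 thus had H3K4me3 in the WT lists alone, and not at its listed start. Inpp5a (139440000 to 139440654, 12 and 9), Cachd1 (100967954 to 100968565, 14 and 13) and the regions named for Lrmda and Ulk4 made up the rest.

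**Figure D5:**
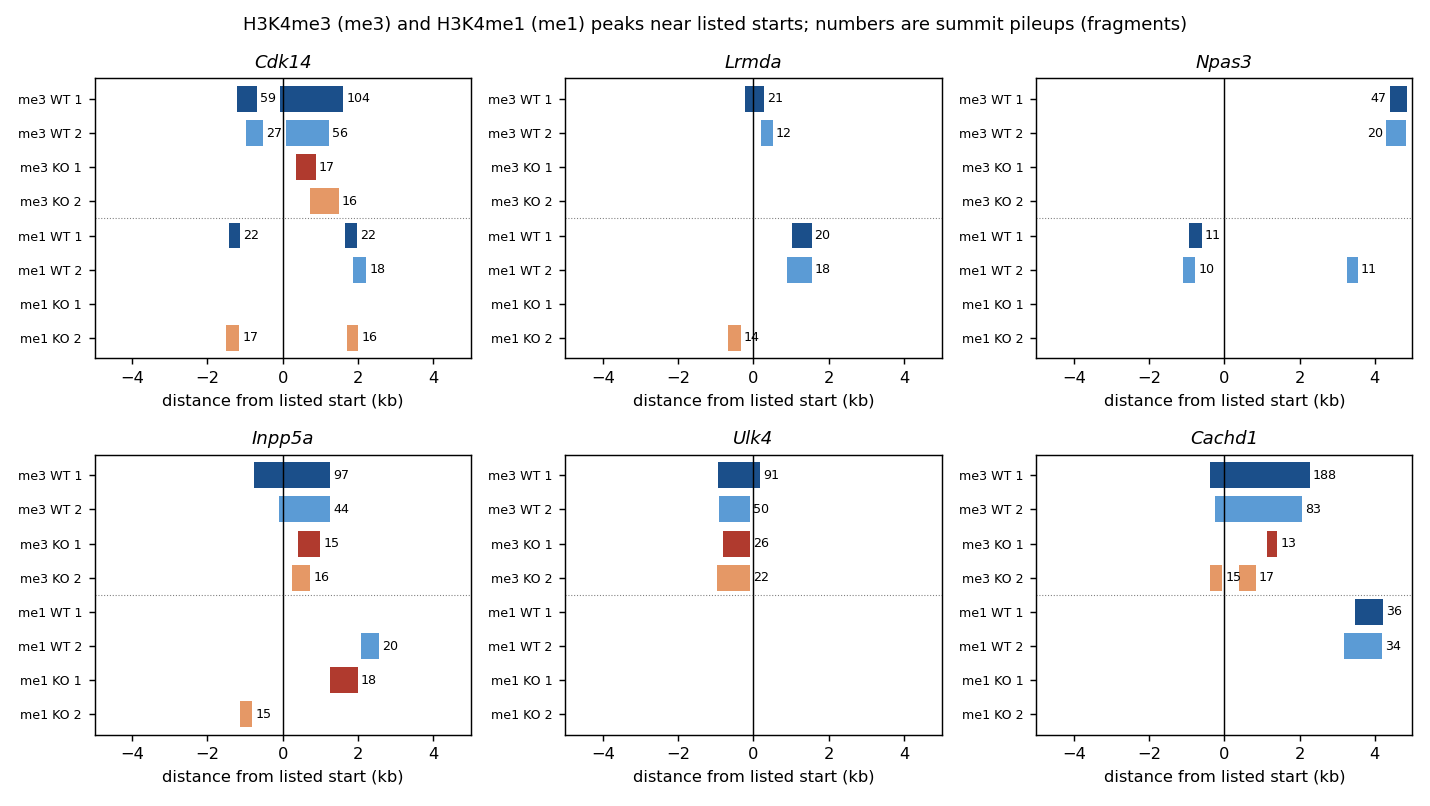
H3K4me3 (upper 4 tracks) and H3K4me1 (lower 4 tracks) peaks within 5 kb of the listed start of 6 genes, in kb along the gene's strand; bars are peaks, the number beside each is its pileup in fragments, and blue is WT and red or orange KO. KO H3K4me3 peaks are shorter and lower at Cdk14, Inpp5a and Cachd1, absent at Lrmda and Npas3, and nearest to the WT peaks in length at Ulk4.

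Among 12781 genes the difference between WT-only and KO-only regions ran from −16 to 9, and it was 0 in 72.8% of them. It was at least 7 in 7 genes, of which Cdk14, Lrmda and Npas3 were 3, and 6 genes were as far on the KO side. The median gene held 2 regions over 29.6 kb, far fewer than these long genes can hold. Among the 75 genes with at least 40 regions, a median of 6.25% of regions were WT-only (0 to 17.5%) and 4.17% KO-only. Cdk14, with 16.7%, had 1 of the 75 above it, Npas3, with 15.2%, had 3, and Lrmda, with 11.7%, had 9. Because these genes were chosen on the same H3K4me1 lists, their ranks are a description only. Of these 75 genes 41 had more WT-only regions and 26 more KO-only regions.

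The 5 other genes with the largest excess were also long, from 597.4 kb (Foxp1) to 1055 kb (Gpc6). Foxp1, a forkhead transcription factor gene, had 10 WT-only against 2 KO-only regions, with 44 and 40 WT peaks and 29 and 24 KO peaks. Arhgap26 had 8 against 1 (49 and 47 peaks, and 40 and 36). Dlgap2, of the postsynaptic scaffold, had 8 against 1 (44 and 40, and 33 and 23). Grm7, a metabotropic glutamate receptor gene, had 7 against 0 (41 and 33, and 30 and 23), and Gpc6, a glypican gene, 9 against 3 (55 and 47, and 43 and 44). Likeness here is the excess of WT-only regions alone, over 4 libraries.

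Relatives of the 7 genes were described from lists of 44 other genes in 7 families. Of these, 11 had more WT-only than KO-only regions, 4 fewer and 29 equal numbers, with 20 WT-only (7.41%) and 9 KO-only (3.33%) among 270 regions, where the genome-wide shares were 6.63% and 5.37%. Of the 37 relatives with any region, 29.7% had an excess of WT-only regions, beside 16.8% of all genes with one, and no test was made of this difference. The median gene with a region held 2, and the relatives were not matched to other genes in number of regions. Of the bHLH-PAS genes other than Npas3, 5 of 11 had an excess of WT-only regions, among them Epas1 and Clock (2 against 0 each), which encode a hypoxia-inducible factor and a circadian regulator, while Sim1 had 0 against 1. Of the calcium channel alpha2delta genes, Cacna2d3 had 6 against 3 among 52 regions and H3K4me3 at a gene end in the WT libraries alone, and Cacna2d1 had 1 against 0 among 24. Of the other inositol polyphosphate 5-phosphatases, 3 of 10 had an excess, Ocrl with 2 against 0 and Inpp5b and Synj1 with 1 against 0 each, and Inpp5f had 0 against 1. Of the kinases nearest Cdk14 and their cyclin partners, Ccnyl1 had 1 against 0 and the other 5 equal numbers. The Unc-51-like kinases Ulk1, Ulk2, Ulk3 and Stk36 had neither kind of region, and Fam53b had 0 against 1.

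The pigmentation genes around Lrmda gave a different picture from Lrmda itself. Tyr, Tyrp1, Slc45a2 and Gpr143, which encode pigment cell proteins, had no H3K4me1 region and no H3K4me3 at a gene end. Oca2 had 0 WT-only and 2 KO-only regions, and none of the 7 relatives on this list had an excess of WT-only regions. Mitf, the melanocyte regulator also active in other cells, held 17 regions, 6 of them shared.

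MLL4 had 0 peaks over the 7 genes in all 4 libraries. Only 41 of 21631 protein-coding genes had an MLL4 peak in any library, and the lists were short, from 40 to 69 peaks. The nearest MLL4 peak lay 0.0871 Mb from Fam53c, 2.18 Mb from Ulk4, 2.6 Mb from Lrmda and 41.0 Mb from Cdk14. At this number of peaks a difference in MLL4 at these genes was not detectable.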

How the data were processed

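The 12 peak lists, 1 per library, were used as deposited. Per the file headers, the authors called narrow peaks with MACS 2.1.0.20150731 on each library alone, in paired-end mode, with a q cutoff of 0.01, duplicates limited automatically, background taken from 10000 bp windows and no control. Per the submitters' processing notes the build was mm10, with Bowtie2, SAMtools 1.5, bedtools, deepTools and HOMER 4.10 also named without a role. Each deposited list gives a pileup signal (fragments at the summit, unscaled), a fold enrichment ratio (not used) and −log10 p and q values. A q cutoff keeps weaker sites in deeper or more enriched libraries, so a missing peak is a site that did not pass. Per the file headers, depth was 4435103 to 13627038 filtered fragments.

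Titles gave each library's group and number. Where p-values are given, they measure only the spread between these libraries, which may be technical. Peaks sharing at least 1 bp were merged within a mark, and genes were taken with 1 kb either side. Gene positions came from RefSeq on GRCm38.p6, which shares mm10's coordinates, and strands and starts from its promoter table (6 of 7 genes matched). Percentiles of pileup are within a library's own list. Values per library were compared by exact two-sided permutation over 6 assignments. The merging and counting were tested on simulated peaks. Python 3.11.15, numpy 2.4.6, pandas 2.3.3 and matplotlib 3.10.9 were used.

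The 7 genes and the gene lists were chosen with earlier results of these data known. Named were the 7 genes, each of their WT-only and KO-only H3K4me1 regions, each gene's tallest shared region, and the 5 other genes with the largest excess of WT-only regions. Other regions and markers named were chosen after their values were seen. The alternatives tried were a −log10 q of at least 10, lists cut to equal length, other gene windows, other merging and cover rules, the replicate block, and leaving out each library.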

Additional observations from a re-analysis of the deposited data

How the results depend on the processing

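Over the 7 genes, there were 35 WT-only H3K4me1 regions, 6 with all lists cut at a −log10 q of at least 10, and 44 to 61 when any 1 library was left out. Of the 35, 5 reached that cutoff in both WT lists, and the other of the 6, in Cdk14, was not among the 35. At that cutoff WT-only and KO-only regions numbered 1264 and 668 genome-wide, against 6263 and 5070. KO-only regions numbered 3, 5 when peaks had to cover 50% of a region, and 9 to 18 with 1 library left out. Under that cover rule the excess at Cdk14 was 3, not 9, and at Cachd1 7, not 4. With lists cut to an equal length, 29 WT-only and 4 KO-only regions were found. The excess at that length was 4, not 7, at Npas3 and 0, not 1, at Inpp5a. Without KO replicate 2 the excess at Inpp5a was 0 as well. With 1 library left out, fewer libraries had to lack or hold a region, which raises both counts by construction. The excess of WT-only regions at Lrmda, 8, turned to −3 at a −log10 q of at least 10. The 2 genes WT-only for H3K4me3 at a gene end became 4 at a −log10 q of at least 10, 0 with lists of equal length, and 1 at listed starts, a window chosen after seeing the data. The causes were not tested.

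The log2 ratio of H3K4me1 peaks over the 7 genes stayed below 0 under each of 8 alternatives. The genes were chosen on this contrast in these lists, so nothing follows from that sign. The log2 ratios of H3K4me3 peaks and covered length also stayed below 0 under each of 9. With lists of equal length the peaks moved to −0.26 and covered length to −1.35. With the replicate block, which pairs same-numbered libraries, the H3K4me3 ratios were −1.92 for covered length and −1.54 for peaks (exact sign-flip p = 0.5, the smallest possible). Across genes, the difference between replicates in WT correlated with that in KO at −0.00239 for H3K4me1 and 0.0191 for H3K4me3. These values showed no pairing by number, but libraries made together need not share differences by gene. Whether same-numbered libraries were made together is not in the labels. Low KO H3K4me3 pileups limit what these lists can show.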
